A study of Mus musculus with 20 samples.

Results

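Genes of the cytosolic ribosome were followed in retinas without Nrl, a transcription factor needed for photoreceptors to become rods. They were taken by symbol: every gene on the array whose name starts with Rpl or Rps and a digit, with Rplp0, Rplp1, Rplp2 and Rpsa, leaving out the Rps6k kinases and names marked -ps. Only probe sets with 1 gene symbol were used, which left out 1 probe set naming Rpl38. This gave 30 genes, measured by 75 probe sets, of the 15803 genes and 194293 probe sets of the series. Of the 30 genes, 15 rested on 1 probe set and 15 on 2 or more. Rplp1 and Rplp2 were not analysed here, and neither were many other proteins of the ribosome, such as those of the genes Rps6, Rpl5 and Rpl11. All mice were Nrl-/- on the C57Bl/6J strain, and their retinas form cone-like cells in place of rods. The groups are retinas of 1, 2, 4, 6 and 10 months of age, with 4 mice (numbered 1 to 4) per age, the retinas of both eyes of a mouse making up a sample. All groups share the knockout, no wild-type retina was analysed here, and normal maturation or ageing therefore cannot be told apart from the effect of the lost gene. RNA depleted of ribosomal RNA was hybridised to Affymetrix exon arrays, on which each probe set reads a stretch of about an exon, and levels are log2 intensities.

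The ribosome is the particle that makes protein from messenger RNA. Its small subunit (Rps genes) reads the message and its large subunit (Rpl genes) joins the amino acids. Cells make the subunit proteins in matched amounts, and their messages carry a run of C and T bases at the very start, the 5′ TOP element, through which mTOR signalling and the protein Larp1 set their translation. Ribosomal protein genes have many near-identical copies without introns in the genome, and whether a probe also reads such copies was not examined here.

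To show what the starts of these genes look like, the 60 bases around the annotated start are printed for 3 members that fell (Rps13, Rps25, Rplp0), 2 that rose (Rps3, Rps9) and Rpl31, from the promoter table of RefSeq on GRCm38.p6, from 40 bases before to 20 after the start. Capitals mark runs of at least 8 C or T bases within 20 bases of the start.
Rps13, chr7:116334171-116334230 (-): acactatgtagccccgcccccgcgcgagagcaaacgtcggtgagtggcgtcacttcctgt
Rps25, chr9:44407674-44407733 (+): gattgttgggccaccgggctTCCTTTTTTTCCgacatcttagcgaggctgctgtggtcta
Rplp0, chr5:115559427-115559486 (+): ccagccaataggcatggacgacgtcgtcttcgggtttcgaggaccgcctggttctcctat
Rps3, chr7:99483690-99483749 (-): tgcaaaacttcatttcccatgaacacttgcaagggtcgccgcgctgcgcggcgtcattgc
Rps9, chr7:3704001-3704060 (+): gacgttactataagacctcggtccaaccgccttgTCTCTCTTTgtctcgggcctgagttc
Rpl31, chr1:39367811-39367870 (+): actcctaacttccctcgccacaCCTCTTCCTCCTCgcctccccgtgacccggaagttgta
Of the 30 members, 25 had a promoter in that table. Such a run on the sense strand lay within 20 bases of the start in 10 of these 25 (40%), against 18.4% of all 27025 genes of the table. The motif CCGGAAG, the core bound by ETS family factors, or its reverse complement CTTCCGG lay within the 300 bases of the table's windows in 10 of the 25 (40%), against 9.93% of all genes. The run and the motif were searched for separately and may share bases. Rps25, which fell, and Rps9, which rose, both have the run, while Rps13 and Rps3 have neither feature in these windows. In Rps25 and Rpl31 the capitals lie before the annotated start. Whether transcription starts there in these retinas was not examined, so the run does not show whether a message has the 5′ TOP element.

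The arrays were alike, with a mean correlation of each array with the others, over the genes tested, between 0.974 (4-month mouse 4) and 0.989. In that array 25 of the 30 members had their highest or lowest value of the age, against 9 to 14 in the other 4-month mice. The same held for 23 members in 10-month mouse 3 (mean correlation 0.975) and for 20 in 1-month mouse 4, which was the lowest 1-month mouse in 18 of the 30, Rps14, Rps3, Rps9 and Rpl23 among them. Eif2s3y and Kdm5d, which lie on the Y chromosome, were low in every 2-month mouse and in 10-month mice 2 and 3 and high in the others, so that 2 months against 1 month compares Y-linked levels along with age. Markers of several cell types moved with age beside the members. Lens markers (8 tested of 12) had array means of 7.00 to 7.56 in 1-month mice, 6.23 to 6.58 in 2-month, 6.32 to 6.91 in 4-month, 6.24 to 7.32 in 6-month and 6.47 to 6.67 in 10-month mice, and 3 of the 8 were lower at 10 months. All 8 Müller glia markers rose at 4, 6 and 10 months against 1 month, with array means of 10.81 to 11.01 at 10 months, against 10.32 to 10.42 at 1 month. Of 10 cone markers 7 fell at 10 months, with array means of 11.48 to 11.57, against 11.83 to 11.97 at 1 month. Microglia markers (10 tested) had array means of 7.36 to 7.57 at 2 months, against 7.00 to 7.13 at 1 month, with 7 of 10 higher. Pigment epithelium markers (8 tested of 11) spread most at 10 months, from 6.93 to 8.87. Of all genes tested, 20.6% were higher and 20.7% lower at 10 months against 1 month at an adjusted p under 0.05. At 2, 4 and 6 months 3.33%, 6.9% and 7.95% were higher. The part of the marked cell types in the results was not tested. The defining cone markers were bright in every array. In whole retinas, fewer cells of a type and less RNA per cell cannot be told apart.

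Of the 30 members, 24 had a mean level over the 20 arrays above the limit for testing (log2 5.61, which leaves out the dimmest 25% of genes), among them 11 with 1 probe set. By the start of their symbols, the tested members hold 11 of the large subunit and 12 of the small subunit. Whether paralogs such as Rpl7l1 are part of the finished ribosome was not examined here. The other tested member is Rps19bp1, which the rule takes by its name but which encodes a binding partner of Rps19 and not a ribosomal protein. Across the 5 ages, 9 of the 24 differed by limma's F test (37.5%), near the 38.4% of all 11852 genes tested. They were Rpl10a (adjusted p = 0.000673), Rps25 (0.000722), Rps20 (0.00499), Rps13 (0.0101), Rps14 (0.0157), Rps3 (0.0198), Rps9 (0.0254), Rplp0 (0.0345) and Rps4l (0.0468). The count was 5 (20.8%) with 1-month mouse 3 or mouse 4 left out, where 34.8% and 36.5% of all genes were called. In such fits with 1 array left out, the call of Rps4l was lost in 14 of 20 and that of Rplp0 in 8 (adjusted p as high as 0.146 and 0.0782). The call of Rps9 was lost with 1-month mouse 2, 1-month mouse 3 or 1-month mouse 4 left out (adjusted p from 0.0723 to 0.117), that of Rps3 with 1-month mouse 3 or 1-month mouse 4 left out (adjusted p from 0.0826 to 0.0983) and that of Rps14 with 1-month mouse 4 left out (adjusted p = 0.0612). With both 10-month mice 2 and 3 left out, Rps4l (adjusted p = 0.321) and Rps9 (0.0598) were not called.

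Against 1 month, 4 of the 24 members were called at 2 months (16.7%, background 8.59%), 6 at 4 months (25%, background 15.2%), 7 at 6 months (29.2%, background 16.4%) and 11 at 10 months (45.8%, background 41.3%). These comparisons share the 4 arrays of 1 month. Between 10 and 6 months 1 member was called, as lower (4.17%), where 20.3% of all genes were called and 11.7% were lower, and 2 had an unadjusted p under 0.05. Members went both ways in each comparison with 1 month: 2 rose (background 3.33%) and 2 fell (5.26%) at 2 months, 2 rose (6.9%) and 4 fell (8.25%) at 4 months, 4 rose (7.95%) and 3 fell (8.44%) at 6 months, and 6 rose (20.6%) and 5 fell (20.7%) at 10 months. The median change over the 24 members was 0.04, -0.02, 0.03 and 0.03 at 2, 4, 6 and 10 months against 1 month and -0.02 at 10 against 6 months, beside 0.01, 0.01, 0.01, 0.04 and 0.03 over all genes tested. A change shared by all genes would not be seen on this scale. With the dimmest 50% of genes left out, over the 17 members then tested, the medians at 2, 4 and 10 months against 1 month were 0.14, 0.12 and 0.26, and with the brightest probe set per gene, over 18 members, 0.16, 0.15 and 0.17. Medians over all genes are not given for these settings. At 10 months against 1 month 8 of the 17 rose and 3 fell (64.7%, background 51%). Of the 18, 3 rose and 2 fell (27.8%, background 27.8%). Leaving out 1 mouse moved the counts over the 24 members. The count at 2 months was 1 (4.17%) with 1-month mouse 3, 2-month mouse 2 or 2-month mouse 4 left out (background 5.73%, 5.17% and 4.48%). It was 2 (8.33%) with 1-month mouse 2, 1-month mouse 4 or 2-month mouse 3 left out (background 5.23%, 8.95% and 5.5%). At 4 months it was 4 (16.7%) with 1-month mouse 2 or 4-month mouse 3 left out (background 11.4% and 12%). The count at 6 months was 2 (8.33%) with 6-month mouse 3 left out (background 11.4%). It was 3 (12.5%) with 6-month mouse 4 or 1-month mouse 3 left out (background 12.1% and 11.8%). It was 4 (16.7%) with 1-month mouse 2 or 1-month mouse 4 left out (background 12.5% and 15.6%). The count between 10 and 6 months was 0 with 6-month mouse 2, 3 or 4 or 10-month mouse 2 or 3 left out. The background in these fits was 17.3%, 16.5%, 15.6%, 18.8% and 16.8%.

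**Figure D1:**
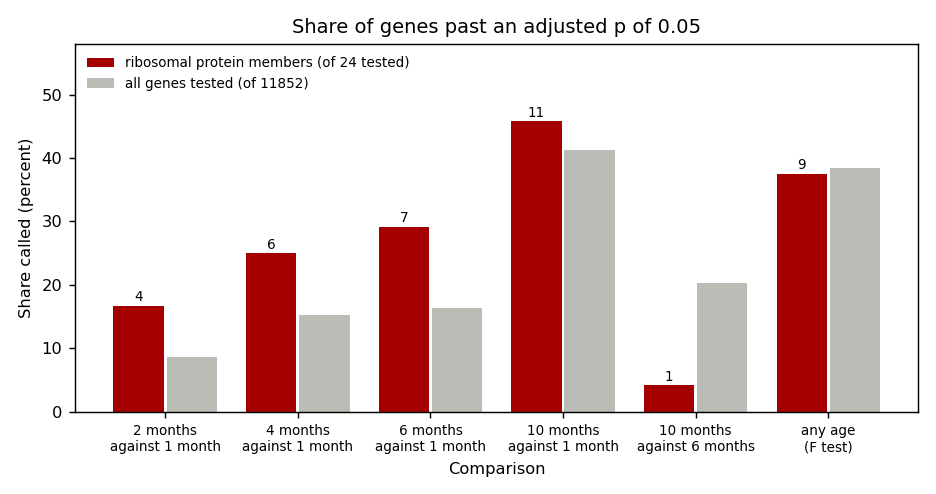
Share of the 24 tested members (red) and of all 11852 genes tested (grey) past an adjusted p of 0.05 in each comparison, in percent, with the number of members above the red bars. The members' share was 45.8% against 41.3% of all genes for 10 months against 1 month, and 4.17% against 20.3% for 10 against 6 months.

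**Figure D2:**
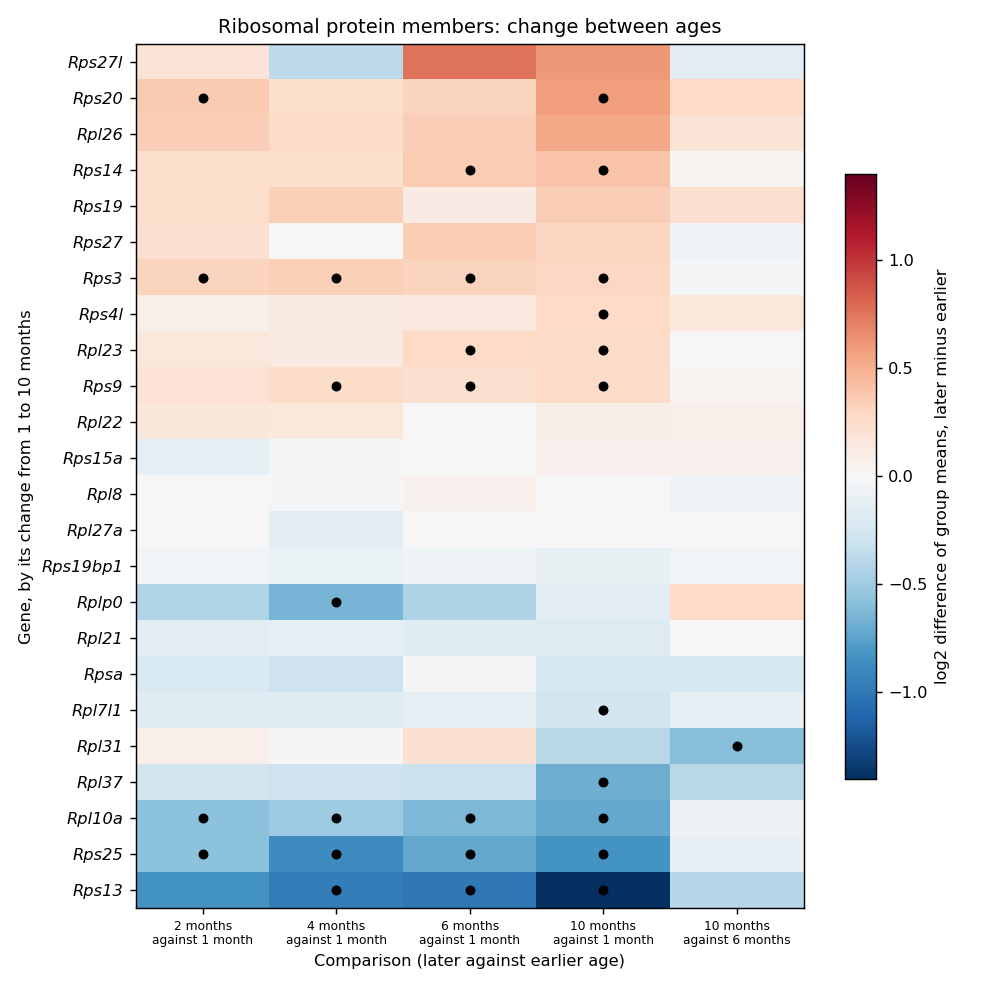
Log2 difference of the group means (later minus earlier age, colour) for the 24 tested members in 5 comparisons, with genes ordered by their change at 10 months against 1 month and a black dot where the adjusted p was under 0.05. Rps13, Rps25 and Rpl10a at the bottom were lower in every comparison with 1 month, from -0.51 to -1.39, and Rps3, Rps14 and Rps20 were higher, from 0.24 to 0.58.

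Rps13, a protein of the small subunit, had the largest fall. Its values were 7.34, 7.63, 7.78 and 7.07 at 1 month and 7.14, 6.12, 6.80 and 6.44 at 2 months. They were 6.47, 6.79, 5.72 and 6.98 at 4 months, 6.90, 6.81, 5.74 and 6.38 at 6 months and 6.36, 5.62, 6.44 and 5.83 at 10 months. Every array of 10 months was below every array of 1 month, with a difference of -1.39 ± 0.29 (SE, n = 4 each, adjusted p = 0.000864), a level 0.381 times that of 1 month. The differences at 4 and 6 months against 1 month were -0.96 ± 0.29 (adjusted p = 0.0316) and -0.996 ± 0.29 (0.0252), and the one at 2 months, -0.83 ± 0.29, did not pass (0.0883). The gene rests on 1 probe set, and its mice differed widely, with an SD of 0.56 at 4 months. The call at 4 months was lost with 4-month mouse 1, 4-month mouse 3, 1-month mouse 1, 1-month mouse 2 or 1-month mouse 3 left out (adjusted p from 0.0533 to 0.113), and that at 6 months with 6-month mouse 3, 6-month mouse 4, 1-month mouse 2 or 1-month mouse 3 left out (adjusted p from 0.0605 to 0.103), while the call at 10 months was kept in each of the 8 fits that left out 1 array of the compared ages.

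Rps25, also of the small subunit and known for its role in translation from viral entry sites, fell early and stayed low. It measured 8.57, 8.57, 8.78 and 8.49 at 1 month and 8.38, 7.83, 7.92 and 8.01 at 2 months. At 4, 6 and 10 months it measured 7.99, 7.51, 7.88 and 7.50, then 8.16, 8.12, 7.55 and 7.70, then 7.64, 7.56, 8.003 and 7.87. No array of a later age reached the lowest array of 1 month. The differences from 1 month were -0.57 ± 0.15 (adjusted p = 0.0244), -0.88 ± 0.15 (0.000689), -0.72 ± 0.15 (0.00299) and -0.84 ± 0.15 (0.000224) at 2, 4, 6 and 10 months. At 10 months the level was 0.56 times that of 1 month, and between 10 and 6 months it differed by -0.11 ± 0.15 (0.62). The call at 2 months was lost with 2-month mouse 2, 2-month mouse 3, 2-month mouse 4, 1-month mouse 2 or 1-month mouse 3 left out (adjusted p from 0.0532 to 0.083), and the later calls were kept in each fit that left out 1 array. Rps25 too rests on 1 probe set.

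Rpl10a, which forms the L1 stalk of the large subunit near the site where used transfer RNA leaves, was also lower at each later age, on 2 probe sets. Its values were 8.82, 8.90, 9.10 and 8.58 at 1 month and 8.05, 8.21, 8.12 and 8.14 at 10 months, with means of 8.27 ± 0.19, 8.34 ± 0.20 and 8.22 ± 0.18 (SD, n = 4 each) at 2, 4 and 6 months. The differences from 1 month were -0.58 ± 0.12 (adjusted p = 0.00535), -0.51 ± 0.12 (0.00656), -0.63 ± 0.12 (0.00128) and -0.72 ± 0.12 (9.06e-05), and the arrays of 1 month overlapped with those of no later age. These 4 calls kept an adjusted p under 0.05 under all alternatives run, but at 2 and 4 months the change was under 1.5-fold. The probe sets fell by unequal amounts, with differences of -1.07 and -0.36 at 10 months against 1 month.

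Rplp0, the protein that anchors the acidic stalk through which elongation factors reach the large subunit, had its lowest mean at 4 months. Its values were 6.56, 6.61, 6.46 and 6.46 at 1 month, 6.17, 5.88, 5.94 and 5.50 at 4 months and 6.67, 6.16, 6.09 and 6.56 at 10 months. The difference at 4 months was -0.65 ± 0.17 (adjusted p = 0.0153), with all arrays of 4 months below those of 1 month and probe set differences of -0.64 and -0.65. At 2 and 6 months it was -0.42 ± 0.17 (0.158) and -0.43 ± 0.17 (0.0973), and at 10 months -0.15 ± 0.17 (0.498), none of which passed. Between 10 and 6 months the level differed by 0.28 ± 0.17 (0.277), with overlapping groups, so a later rise was not established. The call at 4 months was kept in each fit that left out 1 array, 4-month mouse 4, the lowest of its age, included.

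**Figure D3:**
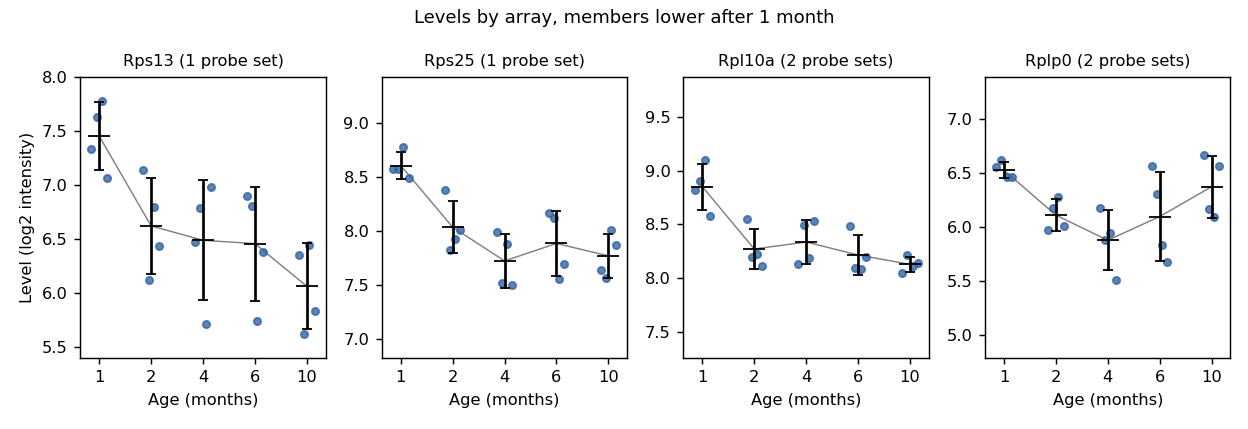
Levels of Rps13, Rps25, Rpl10a and Rplp0 (log2 intensity) against age in months, with a point for each mouse, and the mean and SD of the 4 mice of an age in black. Rps25 lies at 8.38 or below in all later arrays, against 8.49 to 8.78 at 1 month, while Rplp0 averages 5.87 at 4 months and 6.37 at 10 months.

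In 6-month mouse 2 the lens gene Cryaa measured 9.22, inside its range of 8.58 to 9.74 at 1 month. In that array, the only later one at such a level, Rps25, Rps13 and Rpl10a measured 8.12, 6.81 and 8.10, each below the lowest array of 1 month. Rpl37, a further member that fell, measured 6.42 there, inside its range of 6.25 to 6.51 at 1 month. These values come from 1 array and 1 lens gene, and the part of lens RNA in the falls was not tested. Rpl37, a small zinc-binding protein of the large subunit, measured 5.74, 5.79, 5.33 and 5.94 at 10 months, against 6.41, 6.51, 6.35 and 6.25 at 1 month. The groups did not overlap, and the difference was -0.68 ± 0.25 (adjusted p = 0.0328). That call, on 1 probe set, was lost with 10-month mouse 1, 10-month mouse 3, 1-month mouse 1, 1-month mouse 2 or 1-month mouse 3 left out (adjusted p from 0.0536 to 0.104), and with 10-month mice 2 and 3 left out together (adjusted p = 0.191). Rpl7l1, a protein related to Rpl7, measured 9.10, 9.20, 9.01 and 9.13 at 10 months, against 9.51, 9.37, 9.36 and 9.24 at 1 month. The groups did not overlap, and the difference was -0.26 ± 0.07 (0.00525), with all 4 of its probe sets lower. The call was lost with the brightest probe set alone (-0.21, adjusted p = 0.0865). Rpl31, of the rim of the peptide exit tunnel, was the member called between 10 and 6 months, with 7.19, 6.83, 6.49 and 7.38 at 10 months, against 7.43, 7.58, 7.61 and 7.66 at 6 months, and a difference of -0.60 ± 0.18 (0.0247). The groups did not overlap. The call was lost with 10-month mouse 2, 10-month mouse 3, 6-month mouse 2, 6-month mouse 3 or 6-month mouse 4 left out (adjusted p from 0.0506 to 0.0968), and with 10-month mice 2 and 3 left out together (adjusted p = 0.362).

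Among the members that rose, Rps20 of the small subunit changed most at 10 months. It measured 8.89, 9.01, 8.90 and 8.79 at 10 months, against 8.17, 8.44, 8.33 and 8.32 at 1 month, and these groups did not overlap. The difference was 0.58 ± 0.11 (SE, adjusted p = 0.00033), just under 1.5-fold. At 2, 4 and 6 months the level averaged 8.68 ± 0.21, 8.56 ± 0.24 and 8.62 ± 0.12 (SD, n = 4 each), where only 2 months passed (0.36 ± 0.11, adjusted p = 0.0461), and that call was lost with 2-month mouse 1, 2-month mouse 2, 2-month mouse 4, 1-month mouse 1, 1-month mouse 2, 1-month mouse 3 or 1-month mouse 4 left out (adjusted p from 0.057 to 0.166). Between 10 and 6 months the difference was 0.28 ± 0.11 (0.0854), with separate groups. Rps20 has 1 probe set.

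Rps14, whose loss from a deleted region of human chromosome arm 5q impairs red cell formation, increased by smaller amounts. It measured 12.05, 11.70, 12.10 and 11.85 at 10 months, against 11.63, 11.57, 11.49 and 11.40 at 1 month. The lowest array of 10 months was above the highest of 1 month, with a difference of 0.40 ± 0.09 (adjusted p = 0.00216). At 2, 4 and 6 months the differences were 0.25 ± 0.09 (0.112), 0.24 ± 0.09 (0.0883) and 0.36 ± 0.09 (0.0135), and the groups did not overlap at any of these ages either. The call at 6 months was lost with 6-month mouse 3 left out (adjusted p = 0.0588). Rps14 has 1 probe set.

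Rps3, which lines the channel where messenger RNA enters the small subunit, was higher at every later age. It measured 9.49, 9.45, 9.28 and 9.22 at 1 month, 9.57, 9.61, 9.72 and 9.78 at 2 months and 9.50, 9.76, 9.74 and 9.78 at 4 months. It measured 9.48, 9.59, 9.91 and 9.72 at 6 months and 9.60, 9.65, 9.73 and 9.63 at 10 months. The groups did not overlap except at 6 months, where 1 mouse did. The differences from 1 month were 0.31 ± 0.09, 0.33 ± 0.09, 0.31 ± 0.09 and 0.29 ± 0.09 (adjusted p = 0.034, 0.0139, 0.0192 and 0.0128). All 3 probe sets were higher at each age, from 0.17 to 0.54. The call at 2 months was lost with 2-month mouse 2, 2-month mouse 3, 2-month mouse 4, 1-month mouse 3 or 1-month mouse 4 left out (adjusted p from 0.0581 to 0.122), that at 6 months with 6-month mouse 3, 6-month mouse 4, 1-month mouse 3 or 1-month mouse 4 left out (adjusted p from 0.0528 to 0.0807), and that at 10 months with both 10-month mice 2 and 3 left out (adjusted p = 0.0924). With the brightest probe set alone all 4 calls were lost, with differences of 0.23, 0.25, 0.25 and 0.24 (adjusted p = 0.338, 0.21, 0.207 and 0.127), as was the F test (0.345).

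Rps9, another protein of the small subunit, measured 11.21, 11.16, 11.21 and 11.03 at 10 months, against 11.12, 10.80, 10.88 and 10.77 at 1 month. Mouse 1 of the youngest age overlapped with each later age, and the other 1-month mice were below all later ones. The differences were 0.20 ± 0.07 (0.083), 0.25 ± 0.07 (0.019), 0.22 ± 0.07 (0.0367) and 0.26 ± 0.07 (0.00541) at 2, 4, 6 and 10 months, and all 4 probe sets were higher at each of the 3 called ages. The call at 4 months was lost with 4-month mouse 3, 1-month mouse 2 or 1-month mouse 4 left out (adjusted p from 0.0613 to 0.0666), that at 6 months with 6-month mouse 1, 6-month mouse 2, 6-month mouse 3, 6-month mouse 4, 1-month mouse 2, 1-month mouse 3 or 1-month mouse 4 left out (adjusted p from 0.0537 to 0.111), and that at 10 months with both 10-month mice 2 and 3 left out (adjusted p = 0.0522). With the brightest probe set alone the calls at 4, 6 and 10 months were lost, with differences of 0.08, 0.17 and 0.11 (adjusted p = 0.781, 0.534 and 0.58), as was the F test (0.818).

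**Figure D4:**
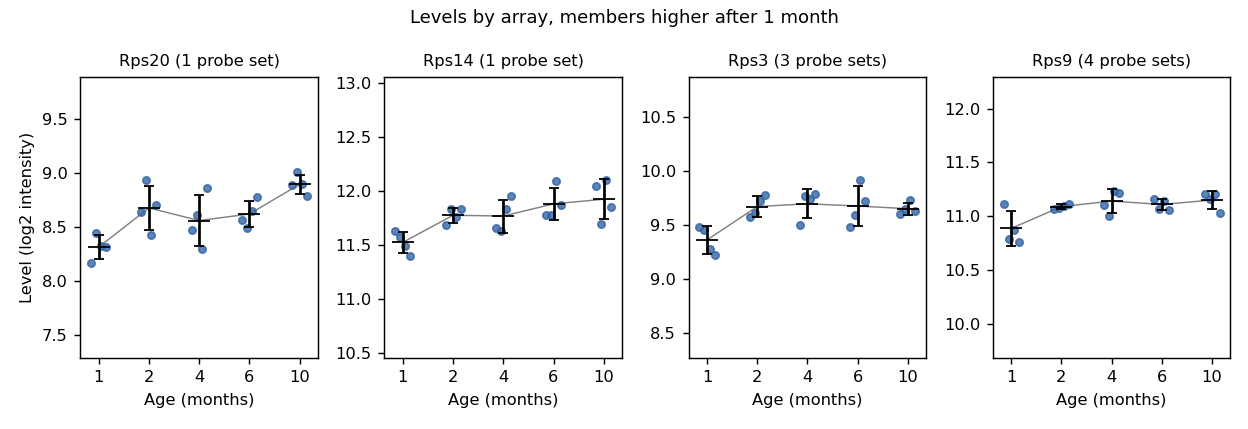
Levels of Rps20, Rps14, Rps3 and Rps9 (log2 intensity) against age in months, with a point for each mouse, and the mean and SD of the 4 mice of an age in black. Rps3 averages 9.65 to 9.70 at the later ages and 9.36 at 1 month, and Rps20 averages 8.90 at 10 months and 8.31 at 1 month.

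Rpl23, a protein of the large subunit that can bind Mdm2, measured 7.77, 7.63, 7.56 and 7.76 at 10 months, against 7.60, 7.33, 7.44 and 7.27 at 1 month. It was higher by 0.27 ± 0.09 at 10 months (adjusted p = 0.0211) and by 0.28 ± 0.09 at 6 months (0.0407), with groups that overlapped through 1-month mouse 1. Those calls were lost with 10-month mouse 1, 10-month mouse 4, 1-month mouse 2 or 1-month mouse 4 left out (adjusted p from 0.0565 to 0.0729) and with 6-month mouse 3, 6-month mouse 4, 1-month mouse 2, 1-month mouse 3 or 1-month mouse 4 left out (adjusted p from 0.0692 to 0.146). With the mean of the probe sets in place of median polish the calls at 10 and 6 months were lost too (adjusted p = 0.0979 and 0.0875), and with the brightest probe set alone the differences were 0.16 (0.21) and 0.06 (0.785). Rps4l, named Rps4y2 on the array and related to Rps4x, measured 8.55, 8.78, 8.91 and 8.67 at 10 months, against 8.32, 8.57, 8.40 and 8.48 at 1 month, a difference of 0.28 ± 0.07 (0.00487). The groups overlapped. The 10-month mice highest in Rps4l were mice 2 and 3, the ones low in Y-linked genes, and with both left out the call was lost (difference 0.16, adjusted p = 0.123).

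By subunit, as read from the symbols, members were counted at 10 months against 1 month. Of the 12 tested members of the small subunit 5 rose and 2 fell, with a median change of 0.29. Of the 11 of the large subunit 1 rose and 3 fell, with Rpl7l1 among the 3, and the median was -0.15. The shares of all genes tested were 20.6% higher and 20.7% lower. The difference between the subunits was not tested. In the same comparison 9 of the 24 members had groups that did not overlap (background 35.9%). Among the members with 1 probe set 5 of 11 were called at 10 months (45.5%), where 20.6% of all 267 tested genes with 1 probe set were. Among those with 2 or more, 6 of 13 were called (46.2%), near the 41.3% of all 11852 genes tested, of which 11585 have 2 or more.

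Members with 1 probe set had the wider spread between mice. The SD between mice of an age, pooled over the ages, had a median of 0.30 over the 11 tested members with 1 probe set (0.14 to 0.55) and 0.13 over the 13 with 2 or more (0.09 to 0.28). Over all tested genes the medians were 0.27 and 0.11. Genes were not matched for level, and the part of level in this difference was not tested. Rps14, with 1 probe set and a mean level of 11.77, had an SD of 0.14. Rplp0, with 2 probe sets and a mean level of 6.19, had 0.27. Rps27l, with 1 probe set, had the widest spread of the tested members and Rpl7l1, with 4, the narrowest. Of 17 called results of members with 2 or more probe sets, in the 5 comparisons of ages, all probe sets had the sign of the gene in 16, the exception being Rpl23 at 10 months against 1 month, where 5 of 7 did. The gene value is a summary of these same probe sets and only called results were counted, so such agreement is in part built in.

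**Figure D5:**
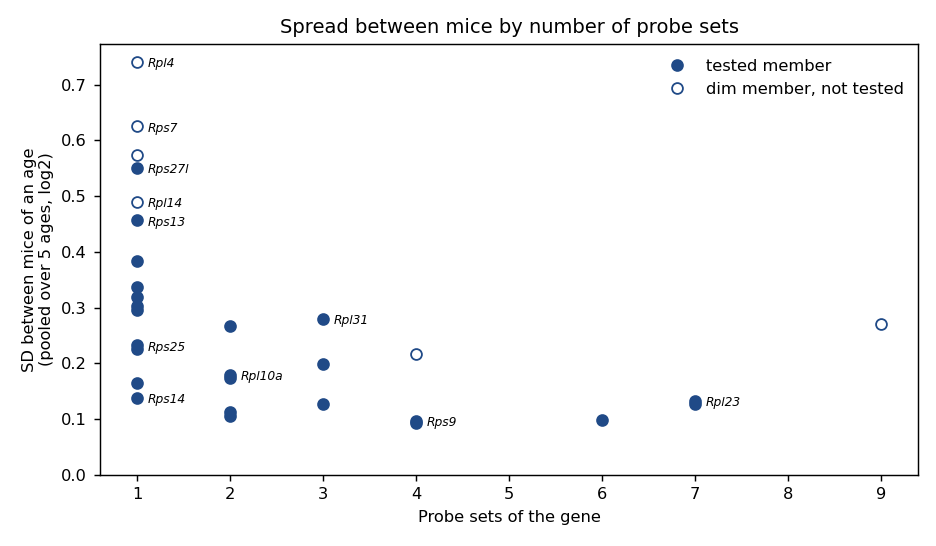
SD between mice of an age (log2, pooled over the 5 ages) against the number of probe sets of each of the 30 members, filled for the 24 tested and open for the 6 dim ones. The tested members with 1 probe set range from 0.14 (Rps14) to 0.55 (Rps27l), and those with 2 or more from 0.09 to 0.28 (Rpl31).

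The remaining 11 tested members passed in none of the comparisons. Rpl26, which can bind the message of p53, came near at 10 months, with 8.32, 8.24, 8.57 and 8.18, against 7.66, 7.71, 7.97 and 7.87 at 1 month, groups that did not overlap, and a difference of 0.53 ± 0.22 (adjusted p = 0.0594). Rps19, the gene most often mutated in human Diamond-Blackfan anaemia, differed by 0.35 ± 0.15 (0.0658) at 10 months. Rps27l, a paralog of Rps27 induced by p53, differed by 0.76 ± 0.35 at 6 months (0.156) and 0.61 ± 0.35 at 10 months (0.174), and its arrays of 2 months spread between 4.67 and 6.51. Rps27 differed by 0.30 ± 0.19 at 10 months (0.221). Rpsa, also known as a laminin receptor, differed by -0.25 ± 0.20 at 10 months (0.327), and Rpl21 by -0.18 ± 0.21 (0.499). These 6 have 1 probe set each. The others had more probe sets and smaller standard errors. Rpl8, with 7 probe sets, measured 9.77 ± 0.08 at 10 months, against 9.76 ± 0.14 at 1 month (SD, n = 4 each), a difference of 0.01 ± 0.09. At 10 months against 1 month Rpl22 differed by 0.08 ± 0.08, Rpl27a by -0.01 ± 0.13, Rps15a by 0.06 ± 0.12 and Rps19bp1 by -0.10 ± 0.07.

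The other 6 members were too dim to be tested. Rpl3l, a paralog of Rpl3 found in striated muscle, and Rpl39l, a paralog of Rpl39 found mainly in testis, averaged 4.63 and 2.91 at 10 months, against 4.55 and 2.84 at 1 month, over 9 and 4 probe sets. Rpl4, Rpl14, Rps7 and Rps18, which every cell uses, were measured by 1 dim probe set each. Rpl4 ranged from 3.37 to 6.23 within the 4 arrays of 4 months. In a limma fit of all genes without the filter 0 of the 36 results of these 6 genes (5 comparisons and the F test) passed, and 4 had an unadjusted p under 0.05.

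Other genes of ribosome production and use were counted from lists chosen by role. Unless a direction is named, shares and backgrounds take rises and falls together. Of all genes tested, 20.6% were called higher and 20.7% lower at 10 months against 1 month. Between 10 and 6 months 11.7% were called lower. Of 13 tested messages of the elongation factor and 5′ TOP list, 2 rose and 1 fell at 10 months against 1 month (Pabpc1, the poly(A) binding protein, 0.20 ± 0.06, Eef1b2 0.22 ± 0.08 and Eef1e1 -0.23 ± 0.07, SE), a share of 23.1% beside the background of 41.3%. At 4 months limma called 0 of the 13, with 3 at an unadjusted p under 0.05. Whether each of the 13, Eef1e1 included, is an elongation factor or a 5′ TOP message was not examined here. Of 44 tested ribosome assembly factors, 6 rose and 13 fell at 10 months against 1 month (43.2% called, background 41.3%), led by Nvl, an ATPase of large subunit maturation, at -0.72 ± 0.06, Nop16 at -0.57 ± 0.10 and Ltv1 of small subunit export at -0.57 ± 0.09. Between 10 and 6 months 4 rose and 8 fell (27.3%, background 20.3%). Of 8 tested genes of RNA polymerase I and its factors, which transcribe ribosomal RNA, 0 rose and 5 fell at 10 months against 1 month. That was 62.5%, where 20.7% of all genes fell and 41.3% were called in either direction. Among the 5 were the catalytic subunit Polr1a (-0.49 ± 0.06) and Polr1d (-0.51 ± 0.10). The list's median change was -0.34, beside 0.04 over all genes tested. Of 68 tested mitochondrial ribosomal proteins, 7 rose and 19 fell at 10 months against 1 month (38.2%, background 41.3%), and 1 rose and 13 fell between 10 and 6 months (20.6%, background 20.3%), both shares near those of all genes, with Mrpl24 at -0.54 ± 0.08 and Mrps25 at -0.52 ± 0.07. Of 16 tested regulators, 4 rose and 5 fell at 10 months against 1 month (56.2%, background 41.3%). Cdkn1a, the cell cycle inhibitor induced by p53, rose by 1.78 ± 0.17 and Rps6kb2, a kinase of ribosomal protein RPS6, differed by -0.55 ± 0.11.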

How the data were processed

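Retinas of 20 Nrl-/- mice, 4 at each of 5 ages, were hybridised to 1 exon array each. The deposited values are log2 intensities per probe set that the authors made with RMA, as the submitters' processing notes name it. For software, probe set selection and genome build, versions were not given in the sources used here. RMA gives the arrays a common distribution. Values ran from 0.986 to 14.3 with none missing, and no 2 columns were identical. Precision is limited by the number of arrays.

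Probe sets with 1 symbol in the platform annotation (179496) were kept, 1328 with several (1 of them naming Rpl38) were left out, and 13469 were unnamed. Symbols were updated through RefSeq synonyms (GRCm38.p6), and probe sets were combined per gene by median polish. Genes in the lowest 25% of mean level were left out. limma 3.58.1 in R 4.3.3 (lmFit, eBayes) was fitted to all 20 arrays with 1 mean per age (15 residual degrees of freedom). Its two-sided p-values were adjusted by Benjamini-Hochberg over all 11852 genes with a threshold of 0.05, for 5 comparisons of ages and an F test. The replicates are separate mice, and the replicate numbers do not pair them. The members, gene lists and alternatives were chosen with earlier results of these data known. All 30 members are named, with values and tests for the called ones and fewer, or none, for the others. Values of other lists are given for up to 3 called genes with the largest change. The alternatives were other probe set summaries, dim filters, normalizations, array weights, moderated trend, a replicate block, fits of the compared ages alone, a minimum of 1.5-fold, leaving out each array in turn and leaving out both 10-month mice 2 and 3. The steps were tested on simulated data. Figures were drawn with matplotlib 3.10.9.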

Additional observations from a re-analysis of the deposited data

Results flagged for a closer look

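Among 155 groups of 4 arrays (30 members and their median at 5 ages), 5 had an array far from the other 3, its gap to the nearest taking up most of the group's range (Dixon's test). Chance gives about 1 in 20 such groups. Rpl21 at 1 month measured 6.85 in mouse 4, against 7.37, 7.37 and 7.37 in the other mice. Rpl21 at 2 months measured 7.53 in mouse 1, against 6.93, 6.93 and 6.96 in the other mice. Rpl4 at 2 months measured 5.35 in mouse 1, against 6.16, 6.28 and 6.33 in the other mice. Rps15a at 4 months measured 8.14 in mouse 3, against 8.23, 8.24 and 8.25 in the other mice. Rps3 at 4 months measured 9.50 in mouse 1, against 9.74, 9.76 and 9.78 in the other mice. Rpl21, Rpl4 and Rps15a passed no test, and the call of Rps3 at 4 months was kept with 4-month mouse 1 left out.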

How the results depend on the processing

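Counts of called members are given in the order 2, 4, 6 and 10 months against 1 month, 10 against 6 months and any age, where the counts reported are 4, 6, 7, 11, 1 and 9. With the brightest probe set per gene, which left 18 members above the dim filter, they were 1, 2, 3, 5, 2 and 5. These were 5.56%, 11.1%, 16.7%, 27.8%, 11.1% and 27.8% of the members, against 2.9%, 7.09%, 8.05%, 27.8%, 8.34% and 20.4% of all genes. For 10 against 6 months the members' share was then not below that of all genes. With a minimum change of 1.5-fold the counts of the comparisons of ages were 0, 3, 3 and 4 against 1 month and 1 for 10 against 6 months. The share of all genes was not counted with that minimum. Against 1 month the count at 2 months was 2 with no filter on dim genes (6.67%, background 5.21%) and 8 with array weights (33.3%, background 20%). For 10 against 6 months it was 0 with the lowest 50% of genes left out (17 members tested, background 28.5%). With the arrays of these ages alone it was 2 (8.33%, background 15.7%). With both 10-month mice 2 and 3 left out it was 0 (background 15.4%). Leaving out 1 array at a time gave 1 to 4, 4 to 6, 2 to 7, 9 to 12, 0 to 1 and 5 to 11. The shares of all genes in these fits were 4.48% to 8.95%, 11.2% to 15%, 11.4% to 15.6%, 36.2% to 39.5%, 15.6% to 19.4% and 33.5% to 43.4%. The median change of the members moved by more than its spread between mice in 7 of 77 cases: with the brightest probe set it was 0.16, 0.15 and 0.17 at 2, 4 and 10 months against 1 month, with the lowest 50% of genes left out 0.14, 0.12 and 0.26, and at 10 months without dim probe sets 0.17. These alternatives test fewer members. Leaving out 1 array gave medians of -0.04 to 0.05, -0.10 to 0.02, -0.02 to 0.08, -0.04 to 0.10 and -0.04 to 0.01. No called member changed sign under any alternative run, and 11 of the 29 called results of the 5 comparisons kept an adjusted p under 0.05 under all alternatives other than the minimum of 1.5-fold: those of Rpl10a (4), Rps25 at 4, 6 and 10 months, Rplp0 at 4 months and Rps13, Rps14 and Rps20 at 10 months, where Rplp0 and Rps13 were too dim to be tested in 3 of the alternatives. Of these 11, 7 were also past 1.5-fold, and Rpl10a at 2 and 4 months and Rps14 and Rps20 at 10 months were not. The cause of the other losses was not tested.

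Replicate numbers do not pair the mice: deviations of arrays with the same number correlated from -0.57 to 0.56 (median -0.03), and 4 of 20 arrays correlated best with their own number. With the replicate number as a replicate block, the counts were 4, 6, 7, 11, 1 and 10. The shares of all genes were then 6.95%, 13.2%, 13.9%, 38.9%, 17.8% and 34.5%.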

Other observations

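Within some genes the probe sets went different ways. In Rpl31, the 3 probe sets differed by -0.01, -1.51 and -0.61 at 10 months against 6 months and by -0.45, 0.28 and 0.28 at 2 months against 1 month. The first of them was at 7.34 at 10 months, against 7.82 at 1 month, and had reached 7.37 by 2 months, while the other 2 were lowest at 10 months. In Rps4l the 2 probe sets differed by 0.05 and 0.52 at 10 months against 1 month, so that 1 of them carried the rise. In Rps19bp1, which did not pass, 4 of the 6 probe sets were lower and 2 higher in the same comparison (-0.35, 0.26, -0.22, -0.27, -0.22 and 0.29). Which exons these probe sets read was not examined here, and these values have no test of their own.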
